A study of Mus musculus with 12 samples.

Results

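Toll-like receptors are membrane proteins with which cells of the innate immune system recognise parts of microbes. The 10 genes described here are 9 mouse receptor genes, Tlr1, Tlr2, Tlr3, Tlr4, Tlr6, Tlr7, Tlr8, Tlr9 and Tlr13, and Cd14, chosen by symbol from the 55416 genes of a table of raw read counts. Each symbol matched 1 gene, and 9 of the 10 passed the filter on low counts. Tlr8 did not, and Tlr3 passed it through its libraries from LPS-treated cells. Counts came from SIM-A9, a mouse microglial cell line of C57BL/6 origin, in the wild-type line (WT) and in a line named H14 that is labelled MOK-KO (KO). MOK is a protein kinase with sequence similarity to MAP kinases. Both lines were kept in medium alone or treated with lipopolysaccharide (LPS), a component of the outer membrane of Gram-negative bacteria, at 1 µg/mL for 5 h. The 4 groups had 3 libraries each, 12 in all, made from total RNA after ribosomal RNA depletion. KO cells came from this 1 line, so the knockout named in the labels cannot be told apart from other features of the line. The labels do not say how replicate cultures were kept separate, and p-values measure the spread between these libraries. In bulk RNA, fewer cells with a transcript and less of it per cell cannot be told apart.

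The receptors fall into 2 classes by where they meet their ligands. At the cell surface, TLR4 binds LPS together with MD-2, the product of Ly96, after CD14 has handed LPS over, and TLR2 pairs with TLR1 or TLR6 to bind bacterial lipopeptides. In endosomes, TLR3 binds double-stranded RNA, TLR7 and TLR8 bind single-stranded RNA or its breakdown products, TLR9 binds DNA with unmethylated CpG motifs, and TLR13, which mice have and humans lack, binds bacterial ribosomal RNA. All but TLR3 signal through the adaptor MYD88, and TLR3 and TLR4 signal through TRIF, the product of Ticam1.

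Promoter sequence is shown for 4 of the receptors whose RNA differed, by LPS or by line. These were Tlr2 and Tlr3, higher after LPS, Tlr13, lower after LPS, and Tlr6, lower in the KO line. Each window shown holds a marked match. Tlr1, also lower in the KO line, is not shown. The windows hold the 250 bases before the annotated RefSeq start on GRCm38.p6, 5′ to 3′ on the gene's strand, and were matched to the counts by symbol alone. They lie at chr3:83841609-83841858 (Tlr2, minus strand), chr8:45410381-45410630 (Tlr3, minus strand), chr5:64959167-64959416 (the first of 2 Tlr6 windows, minus strand) and chrX:106143025-106143274 (Tlr13, plus strand). Capitals mark matches, on either strand, to the NF-kB consensus (Tlr2 and Tlr3), to the core of the interferon-stimulated response element (Tlr6) and to the PU.1 core GAGGAA (Tlr13).
Tlr2: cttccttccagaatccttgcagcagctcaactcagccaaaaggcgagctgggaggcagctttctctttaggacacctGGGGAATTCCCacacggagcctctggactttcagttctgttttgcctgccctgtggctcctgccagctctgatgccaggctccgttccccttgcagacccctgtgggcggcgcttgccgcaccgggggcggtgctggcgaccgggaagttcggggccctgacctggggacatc
Tlr3: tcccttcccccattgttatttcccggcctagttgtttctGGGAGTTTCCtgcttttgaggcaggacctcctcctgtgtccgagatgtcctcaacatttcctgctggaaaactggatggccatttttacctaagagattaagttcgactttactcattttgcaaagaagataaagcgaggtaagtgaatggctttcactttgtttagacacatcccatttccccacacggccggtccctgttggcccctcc
Tlr6: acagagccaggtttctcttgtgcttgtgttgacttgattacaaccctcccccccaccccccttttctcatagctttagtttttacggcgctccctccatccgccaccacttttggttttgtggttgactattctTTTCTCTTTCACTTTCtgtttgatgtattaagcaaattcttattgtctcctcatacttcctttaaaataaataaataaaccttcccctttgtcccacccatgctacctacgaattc
Tlr13: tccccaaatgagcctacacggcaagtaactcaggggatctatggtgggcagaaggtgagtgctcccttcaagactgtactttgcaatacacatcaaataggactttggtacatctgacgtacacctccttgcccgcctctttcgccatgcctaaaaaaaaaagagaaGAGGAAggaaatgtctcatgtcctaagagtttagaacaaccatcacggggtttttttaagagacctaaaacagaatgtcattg
The Tlr2 window held 3 overlapping matches to the NF-kB consensus, the first 173 bases before the start. The Tlr3 window held 1, at 211 bases. The Tlr6 window held 2 overlapping matches to the response element core, at 116 and 110 bases, both on the opposite strand, and the Tlr13 window held 1 GAGGAA at 83 bases. Among 32851 mouse windows of this length, 7.25% held the NF-kB consensus, 2.98% the response element core and 23.3% GAGGAA. RefSeq windows were found for 7 of the 10 genes. In the other windows, GAGGAA was found once each in 1 of 2 Tlr1 windows, in Tlr8 and in Tlr9. These other windows, the second of Tlr6 and both of Tlr1 among them, held 0 matches to the NF-kB consensus or the response element core. The Tlr6 matches thus depend on which annotated start is taken. A match describes letters in the window and says nothing of binding.

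Library totals ranged from 39.7 M to 72.9 M counts. Mok had mean levels of 3.35 and 2.25 CPM, gene counts per M of the TMM-scaled total, in WT and KO cells in medium (edgeR, adjusted p = 0.0501) and of 2.50 and 1.52 CPM under LPS (adjusted p = 0.0177). Mok RNA was thus present in the KO line, and its level does not show whether the protein was lost. Under LPS this difference missed the threshold in 3 fits with 1 LPS library fewer, those lacking replicate 3 of KO (adjusted p = 0.0753) and replicates 1 or 3 of WT (0.0785 and 0.0515), and the difference in medium passed the threshold in 8 alternatives, among them DESeq2 (0.00568) and leaving out WT medium replicate 2 (0.0416) or KO medium replicate 2 (0.0412). Of 12 microglial markers, 10, 9, 10 and 7 had a mean of at least 1 CPM in WT medium, WT LPS, KO medium and KO LPS. Csf1r, Cd68, Ptprc, Tyrobp and Trem2 were present in every group, whereas C1qa and P2ry12 stayed under 1 CPM in all 4. Summed markers of astrocytes, neurons, fibroblasts, endothelium and B cells reached at most 4.84 CPM in any library. The summed oligodendrocyte markers were 9.05 to 11.3 CPM in WT medium and 20.4 to 22.2 CPM in KO medium, nearly all from Mbp, and their part in the line differences was not tested. Processed pseudogenes held 12.8% to 14.3% of the counts in KO medium and 6.28% to 8.89% elsewhere, except WT medium replicate 2 with 13.1%. In KO LPS replicate 2, 10.4% of counts fell on genes that had no symbol, a share of 4.86% to 8.16% in the other 11 libraries.

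Under LPS the KO line carried less RNA than WT for most of these receptors and more for Tlr2. In that comparison, 7 of the 9 genes tested were lower and 1 was higher, where 12.7% of all 26420 genes tested were lower and 7.87% higher, 20.6% in either direction (edgeR, adjusted p under 0.05). In medium, 5 of the 9 were lower and 0 higher, against 12.3% and 6.88% of all genes (19.2% in either direction). At an unadjusted p under 0.05, 7 were lower in medium and again 0 higher, and DESeq2 also called 0 higher. The median log2 fold change of KO against WT was -1.15 over the 9 genes under LPS and -0.63 in medium, and 0.07 and 0.04 over all genes. LPS itself raised 6 and lowered 2 in WT (16.3% of all genes higher, 16.3% lower, 32.6% in all). In KO cells it raised 4 and lowered 3 (25.3% higher, 26.8% lower, 52% in all). In the protein-coding fit, LPS changed 6462 of 16183 genes in WT and 8285 in KO. Tlr3 counts among the genes raised in both lines and among those lower in KO under LPS. It passed the filter only through its libraries from LPS-treated cells. The LPS effect differed between the lines for 3 genes, all with the smaller or more negative effect in KO cells (0.693% of all genes differed upward and 0.908% downward, 1.6% in all). These were Tlr3, Tlr7 and Tlr13, 3 of the 4 endosomal receptors tested, while 0 of the 4 surface receptors passed that test, and Cd14 did not. The Tlr7 call was lost in 9 of 22 alternatives. At an unadjusted p under 0.05 all 4 surface receptors differed, 1 upward and 3 downward, and DESeq2 called 1 of them, Tlr6. With protein-coding genes only, Tlr6 also passed by edgeR (adjusted p = 0.0164), and the LPS effect differed for 670 of 16183 genes. Without WT medium replicate 2, Tlr2 (adjusted p = 0.0348) and Tlr6 (0.0337) passed by edgeR. Whether the 2 classes differed in this respect was not tested. Without the 2 libraries that stood apart, WT medium replicate 2 and KO LPS replicate 2, the counts under LPS were again 7 lower and 1 higher and in medium 6 lower. The LPS effect then differed for 3 genes downward and for 1, Tlr2, upward.

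**Figure D1:**
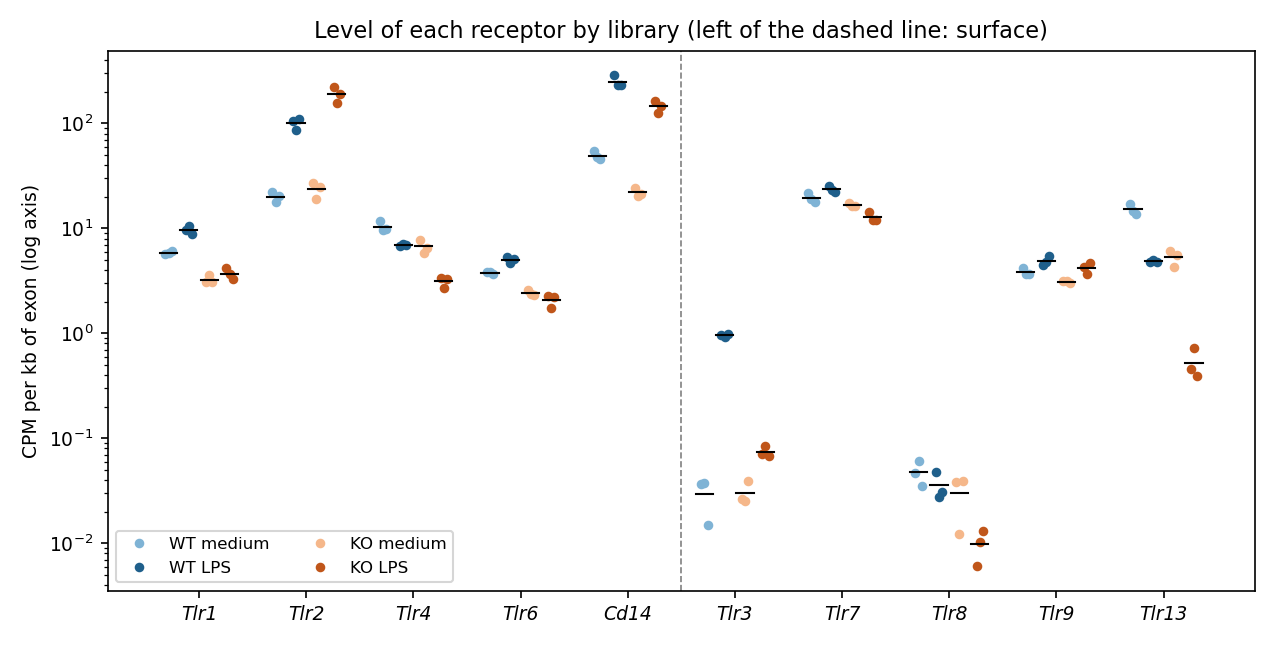
Level of each gene in each of the 12 libraries, as CPM per kb of exon on a log axis, with Cd14 and the surface receptors left of the dashed line and the endosomal receptors right of it. Points are libraries. Tlr3 stands out with WT under LPS at 0.959 CPM per kb, while KO under LPS, at 0.0745, lies less far above the medium groups. Tlr13 stands out with 1 low group, KO under LPS at 0.526 CPM per kb.

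Tlr2 encodes the common chain of the lipopeptide receptors and was the most abundant receptor under LPS in both lines. In WT medium its level was 66.6, 54.1 and 60.8 CPM in replicates 1, 2 and 3, and under LPS 315, 261 and 330 CPM. In KO cells it was 81.8, 57.7 and 74.3 CPM in medium and 671, 475 and 573 CPM under LPS. All 6 LPS libraries lay above all 6 medium libraries, the 3 KO LPS libraries lay above the 3 WT LPS libraries, and the lines overlapped in medium. The LPS log2 fold change was 2.32 ± 0.165 (SE) in WT (adjusted p = 1.29e-06) and 3.01 ± 0.17 in KO (adjusted p = 2.14e-07). Tlr2 was 1.90-fold higher in KO than in WT under LPS (adjusted p = 0.00136). In medium the log2 difference was 0.24 with a 95% interval from -0.11 to 0.58 and did not pass the test (adjusted p = 0.291). The difference between the LPS effects, 0.69 ± 0.22, did not pass either (adjusted p = 0.194). It passed without WT medium replicate 2, at 0.77 (adjusted p = 0.0348). With a block for replicate number, this difference (adjusted p = 0.00812) and the line difference in medium (0.0452) passed. Whether these numbers pair the libraries was not settled.

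Tlr1 and Tlr6 encode the partners of TLR2, and both were lower in the KO line with and without LPS, opposite to Tlr2 under LPS. Tlr1 was at 19.0, 19.5 and 20.6 CPM in WT medium and 32.4, 35.1 and 29.8 CPM under LPS. In KO cells it was at 10.2, 12.1 and 10.3 CPM in medium and 13.97, 12.3 and 11.0 CPM under LPS. Every KO library lay below every WT library, and the KO groups overlapped each other. LPS raised Tlr1 1.65-fold in WT (log2 0.72 ± 0.11, adjusted p = 0.000462), while in KO the log2 change was 0.19 ± 0.11 (adjusted p = 0.167). The line difference was -0.86 ± 0.11 in medium (adjusted p = 0.000256) and -1.39 ± 0.11 under LPS (adjusted p = 5.24e-06). The difference of the LPS effects, -0.53, did not pass the test (adjusted p = 0.15).

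Tlr6 was at 14.3, 14.3 and 13.8 CPM in WT medium and 19.8, 17.3 and 19.0 CPM under LPS. The KO libraries had 9.55, 8.77 and 8.68 CPM in medium and 8.48, 6.56 and 8.29 CPM under LPS. As for Tlr1, all KO libraries lay below all WT libraries, and here the KO libraries under LPS were the lowest. KO was lower than WT, with a log2 difference of -0.65 ± 0.11 in medium (adjusted p = 0.00184) and -1.27 ± 0.11 under LPS (adjusted p = 1.13e-05). The LPS change was 0.41 ± 0.11 in WT (adjusted p = 0.0172) and -0.21 ± 0.11 in KO (adjusted p = 0.135), and the WT call was lost in 6 of 23 alternatives, among them leaving out WT medium replicate 1 (adjusted p = 0.068) or replicate 2 (0.0639), or WT LPS replicate 1 (0.0712) or replicate 3 (0.0555). The KO change passed with library size alone (-0.472, adjusted p = 0.003) and with protein-coding genes only (-0.365, adjusted p = 0.009). The difference between the LPS effects in the 2 lines, -0.62 ± 0.16, did not pass (adjusted p = 0.092). It did without WT medium replicate 2 (adjusted p = 0.0337), with DESeq2 (0.0207) and with protein-coding genes only (0.0164). Tlr1 and Tlr6 share sequence: 20.02% of the 31-base stretches of Tlr1 transcripts also occur in other genes' transcripts, 18.3% in those of Tlr6, and 16.6% of those of Tlr6 recur elsewhere. How reads mapping to several places were counted is not given in the sources used here, so the split between Tlr1 and Tlr6 is uncertain.

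Tlr4, the receptor for LPS itself, was lower after LPS in both lines and lower in KO cells in both conditions. Its level was 65.0, 54.0 and 54.2 CPM in WT medium, 37.8, 39.4 and 38.3 CPM in WT LPS, 43.2, 32.4 and 36.5 CPM in KO medium and 18.5, 15.1 and 18.3 CPM in KO LPS. WT under LPS and KO in medium overlapped, and the KO libraries under LPS lay below the other 9. The LPS change was -0.58 ± 0.12 in WT (adjusted p = 0.00325) and -1.11 ± 0.12 in KO (adjusted p = 3.69e-05). Their difference of -0.52 ± 0.17 did not pass the test (adjusted p = 0.189). The line difference in medium was -0.63 ± 0.12 (adjusted p = 0.00331).

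Cd14, whose product is anchored to the membrane and also released, and hands LPS to TLR4 and MD-2, moved against Tlr4 under LPS and with it between the lines. It was at 94.3, 82.6 and 79.7 CPM in WT medium and 497, 398 and 398 CPM in WT LPS. Levels in KO were 42.4, 35.2 and 37.2 CPM in medium and 282, 219 and 251 CPM under LPS. The 4 groups did not overlap. LPS raised Cd14 5.04-fold in WT (log2 2.33 ± 0.13, adjusted p = 1.91e-07) and 6.56-fold in KO (log2 2.71 ± 0.13, adjusted p = 6.6e-08). KO was lower than WT, with a log2 difference of -1.16 ± 0.13 in medium (adjusted p = 7.37e-05) and -0.78 ± 0.12 under LPS (adjusted p = 0.000842). The difference of the LPS effects was 0.38 with a 95% interval from -0.003 to 0.77 (adjusted p = 0.368).

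Among the endosomal receptors, Tlr3 had the largest LPS change in WT and the largest line difference under LPS of the 9 genes tested. It was close to absent in medium, with 23 counts over the 3 libraries in WT and 23 in KO. Under LPS the WT libraries had 290, 193 and 326 counts (5.01, 4.81 and 5.16 CPM) and the KO libraries 17, 24 and 15 counts (0.369, 0.441 and 0.353 CPM). The WT LPS libraries were the only ones above 1 CPM, and the KO LPS libraries lay above both medium groups without reaching WT LPS. LPS raised Tlr3 32.9-fold in WT (log2 5.04 ± 0.31, adjusted p = 4.34e-07) and 2.45-fold in KO (log2 1.29 ± 0.32, adjusted p = 0.00661). Both folds rest on the few counts in medium, and Tlr3 was tested only because its libraries from LPS-treated cells passed the filter. The KO value also rests on few counts under LPS and moved to 2.29 with the pseudogene share as a covariate (adjusted p = 0.0326). The LPS effect in KO minus that in WT was -3.75 ± 0.45 on the log2 scale (adjusted p = 0.00288), and the line difference under LPS was -3.67 ± 0.28 (adjusted p = 3.66e-06). In medium the log2 difference of 0.07 had a 95% interval from -0.70 to 0.85, so a difference was not detectable at these counts. Gm45542, an antisense gene that covers 7.32% of the Tlr3 exon bases, had 0 counts in all 12 libraries. Whether counting used strand is not stated, so this does not show how reads in the overlap were counted.

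Tlr7, the receptor for single-stranded RNA and guanosine, was the most abundant endosomal receptor in every group. It was at 89.6, 77.8 and 73.2 CPM in WT medium and 104, 94.7 and 90.2 CPM in WT LPS. In KO cells it was at 71.7, 66.8 and 66.3 CPM in medium and 58.4, 49.4 and 49.1 CPM under LPS. The KO LPS libraries were the lowest of the 12 and the WT LPS libraries the highest. LPS lowered Tlr7 in KO, with a log2 change of -0.38 ± 0.10 (adjusted p = 0.00744). This call was lost with the pseudogene share as a covariate, at -0.292 ± 0.195 (adjusted p = 0.499). That share was 12.76% to 14.26% in KO medium and 6.64% to 7.35% in KO LPS. The covariate fit thus cannot tell it apart from LPS in KO. The Tlr7 change of 0.27 ± 0.10 in WT did not pass (adjusted p = 0.056). The WT change passed with DESeq2 (0.024) or its scaling by size factors (0.032), and without WT medium replicate 1 (0.0498) or KO LPS replicate 1 (0.0428). It also passed with a block for replicate number (0.00354), though whether these numbers pair the libraries was not settled. The line difference under LPS was -0.88 ± 0.10 (adjusted p = 6.05e-05). The difference in medium, -0.23 ± 0.10, did not pass (adjusted p = 0.115), but did without WT medium replicate 2 (adjusted p = 0.0465) and with the replicate block (0.0121). The LPS effects differed by -0.65 ± 0.14 (adjusted p = 0.0419), a call lost in 9 of 22 alternatives with adjusted p up to 0.186. These were the covariate fit and leaving out WT medium replicate 3, any 1 of the 3 WT LPS libraries, KO medium replicate 1 or 3, or KO LPS replicate 2 or 3.

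Tlr9, the receptor for CpG DNA, varied least. It was at 14.7, 12.7 and 12.7 CPM in WT medium, 15.6, 16.7 and 18.9 CPM in WT LPS, 11.0, 11.0 and 10.5 CPM in KO medium and 14.9, 12.7 and 16.1 CPM in KO LPS. LPS libraries lay above medium libraries of the same line, and the lines overlapped under LPS. LPS raised Tlr9 by 0.35 ± 0.12 on the log2 scale in WT (adjusted p = 0.0369) and by 0.43 ± 0.12 in KO (adjusted p = 0.00958). The WT call was lost in 15 of 23 alternatives, with adjusted p up to 0.91, among them leaving out any 1 of the 3 WT medium or 3 KO medium libraries, WT LPS replicate 2 or 3, or KO LPS replicate 1. The KO call was lost in 3 of 23. Neither line difference passed the test, at -0.30 in medium (95% interval -0.56 to -0.05, adjusted p = 0.088) and -0.22 under LPS (-0.48 to 0.03, adjusted p = 0.224). The difference in medium passed without WT medium replicate 2, at -0.36 (adjusted p = 0.0377).

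Tlr8 was at the edge of detection. It had 8, 10 and 8 counts in WT medium, 10, 4 and 7 in WT LPS, 7, 2 and 7 in KO medium and 1, 2 and 2 in KO LPS, and the KO LPS libraries were the lowest, level with KO medium replicate 2. Fitted without the filter, over 51688 genes, KO against WT under LPS was -1.86 ± 0.57 (adjusted p = 0.0502) and LPS against medium in KO was -1.69 ± 0.60 (adjusted p = 0.0462).

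Tlr13, the receptor for bacterial 23S ribosomal RNA, was lowered by LPS in both lines and more so in KO cells. It was at 74.1, 63.6 and 58.6 CPM in WT medium and 20.7, 21.3 and 20.4 CPM in WT LPS. The KO libraries had 26.0, 18.6 and 24.1 CPM in medium and 1.98, 3.14 and 1.67 CPM under LPS. KO cells in medium thus overlapped WT cells under LPS, and the KO LPS libraries, with 91, 171 and 71 counts, lay far below all others. The LPS change in WT was -1.65 ± 0.20 (adjusted p = 7.17e-05). The KO line was 2.86-fold lower in medium (log2 -1.51, SE 0.195, adjusted p = 0.00026). The LPS effect in KO minus that in WT was -1.68 ± 0.28 (adjusted p = 0.0138). Replicate 2, the KO LPS library that stood apart, had the highest of the 3 KO LPS values, and without it the line difference under LPS went from -3.19 to -3.51.

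**Figure D2:**
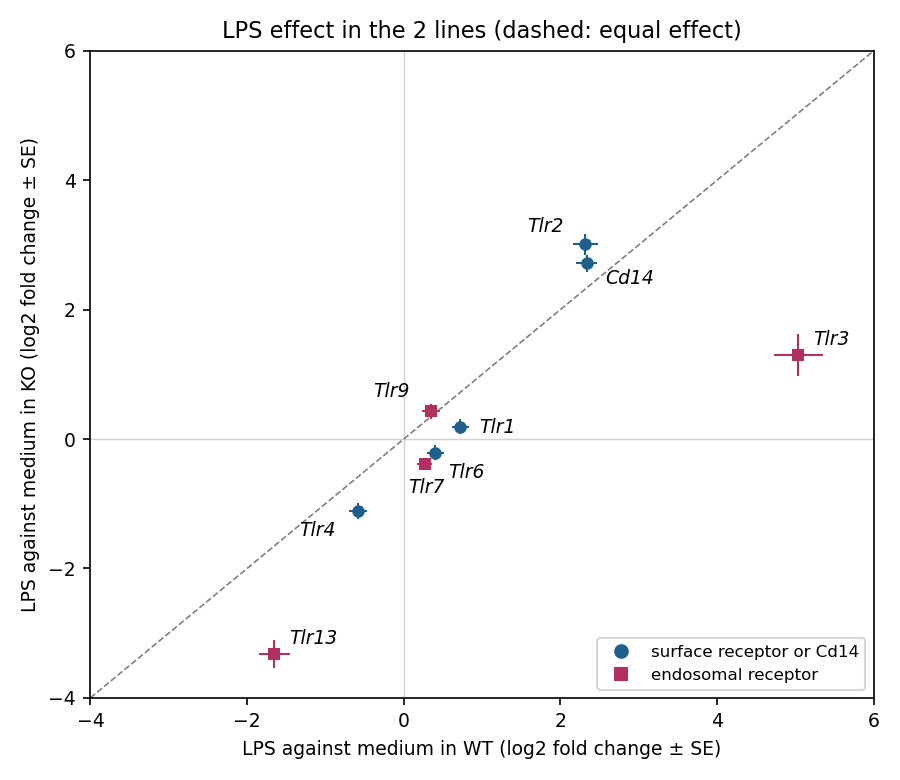
LPS effect on each tested gene in WT (horizontal axis) and KO (vertical axis), as log2 fold change with SE bars. The dashed line marks equal effects. Tlr3 (5.04 in WT, 1.29 in KO) and Tlr13 (-1.65 and -3.33) lie farthest below the line, and Tlr2 and Cd14 lie above it.

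**Figure D3:**
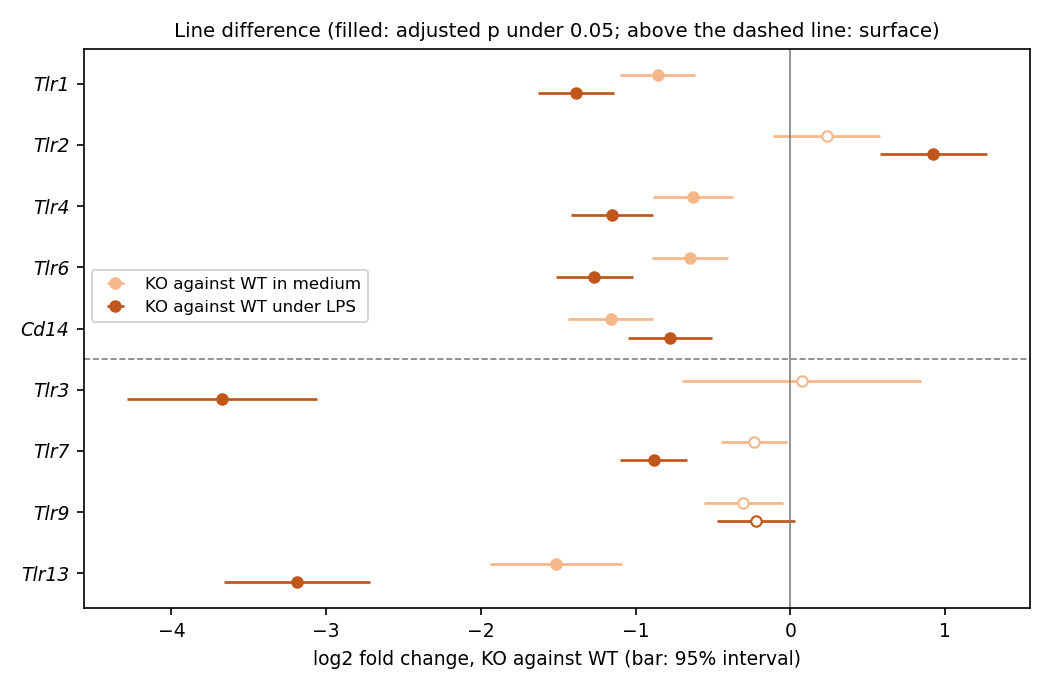
Difference of KO from WT for each tested gene in medium and under LPS, as log2 fold change with 95% intervals. Filled points passed an adjusted p of 0.05. Under LPS, 7 genes lie left of 0 with filled points, Tlr2 lies right of it at 0.92, and Tlr9 has an open point at -0.22.

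Dividing CPM by the exon length of each gene allowed levels to be compared between genes. The 4 surface receptors held 50.9% ± 1.81 (SD, n = 3) of the summed CPM per kb of the 9 receptors in WT medium, 77.9% ± 1.71 in WT LPS, 58.7% ± 1.98 in KO medium and 91.8% ± 0.777 in KO LPS. These 4 ranges did not overlap. Of the 4, only Tlr2 rose in share with LPS, from 25.4% of the sum to 64.0% in WT and from 38.4% to 87.6% in KO cells. The mean shares of Tlr1, Tlr4 and Tlr6 fell in both lines. That of Tlr4 went from 13.2% to 4.46% in WT and from 10.9% to 1.45% in KO, and the Tlr1 shares of the WT groups overlapped. The surface sum was 40.1 ± 3.02 and 122 ± 11.4 CPM per kb in WT medium and WT LPS, and 36.0 ± 4.81 and 199 ± 33.4 CPM per kb in KO cells. The endosomal sum was 38.8 ± 4.25 and 34.4 ± 1.35 CPM per kb in WT, and 25.2 ± 1.49 and 17.6 ± 1.35 CPM per kb in KO. The endosomal sums of KO libraries thus lay below those of WT in both conditions. These shares are descriptions, with no test over the class.

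**Figure D4:**
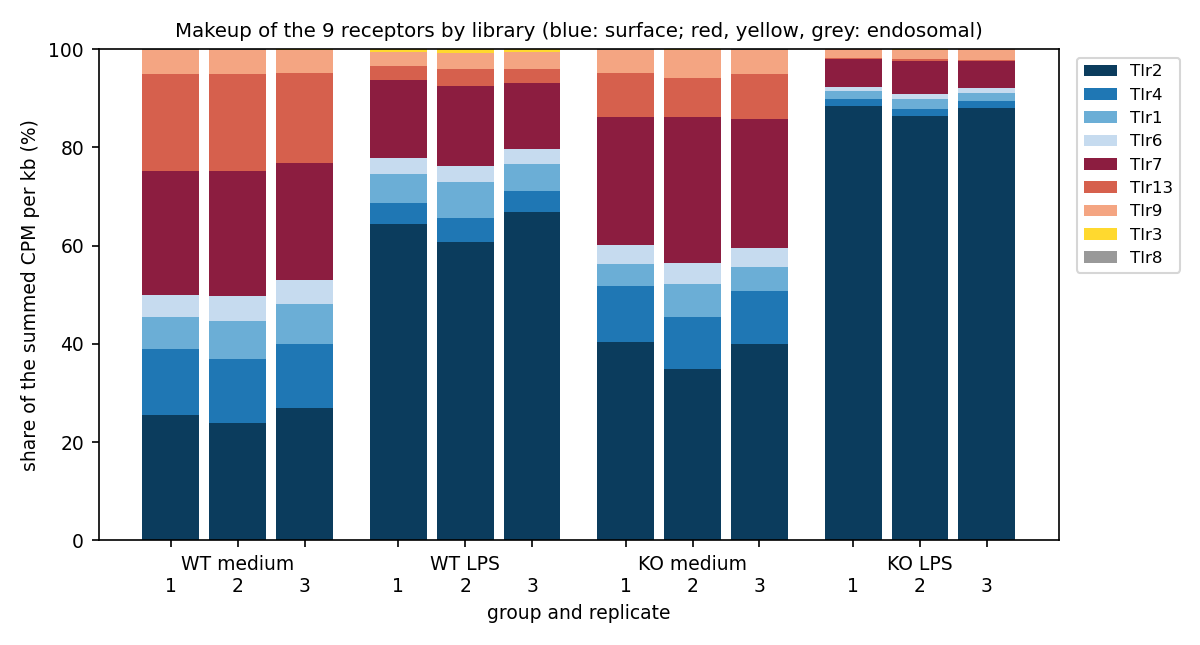
Share of each of the 9 receptors in their summed CPM per kb, in percent, for each library, grouped by line and treatment. Bars stack to 100, with surface receptors in blue. The surface share was 49.8% to 53.0% in WT medium and 90.9% to 92.4% in KO LPS.

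Ratios between partners shifted in the same libraries. Tlr2 stood to Tlr4 per length as 1.93 ± 0.116 in WT medium, 14.5 ± 1.99 in WT LPS, 3.51 ± 0.237 in KO medium and 60.8 ± 5.15 in KO LPS. Tlr2 stood to Tlr1 as 3.42 in WT medium and 51.4 in KO LPS, and to Tlr6 as 5.30 and 90.9. For the LPS receptor complex, Cd14 stood to Tlr4 as 4.76 ± 0.129 in WT medium, 36.0 ± 5.40 in WT LPS, 3.30 ± 0.170 in KO medium and 46.5 ± 2.40 in KO LPS. Ly96 stood to Tlr4 as 0.208 ± 0.00988, 0.576 ± 0.0503, 0.396 ± 0.0359 and 1.24 ± 0.0487, in the same order of groups. That ratio depends on the length taken for Tlr4, since with its longest transcript in place of the union of exons Tlr4 in KO LPS was at 4.25 instead of 3.12 CPM per kb, against 3.87 for Ly96 by its exons. Among the endosomal receptors, Tlr7 stood to Tlr13 as 1.29 ± 0.0217 in WT medium, 4.88 ± 0.365 in WT LPS, 3.20 ± 0.516 in KO medium and 26.2 ± 8.37 in KO LPS, where replicate 2 had the lowest value, 16.6.

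The order of levels per length changed with line and treatment. In WT medium it was Cd14 (49.4 CPM per kb), Tlr2 (20.1), Tlr7 (19.7), Tlr13 (15.2), Tlr4 (10.4), Tlr1 (5.88), Tlr9 (3.84), Tlr6 (3.79), Tlr8 (0.0474) and Tlr3 (0.0296), and the replicates of Tlr2 and Tlr7, of Tlr9 and Tlr6, and of Tlr8 and Tlr3 overlapped. In WT LPS, Cd14 (249), Tlr2 (100.2) and Tlr7 (23.6) led, and Tlr3 passed Tlr8. Tlr13 (4.84) fell behind Tlr1, Tlr4, Tlr6 and Tlr9, overlapping Tlr6 (5.02) and Tlr9 (4.90). In KO medium, Tlr2 (23.7) and Cd14 (22.1) overlapped at the top, followed by Tlr7 (16.7). In KO LPS, Tlr2 (190.0) and Cd14 (145) again overlapped, and Tlr9 (4.20), Tlr1 (3.71) and Tlr4 (3.12) followed Tlr7 (12.8), each overlapping the next. Tlr13 ranked eighth there, at 0.526. The order of genes close in level depends on the length taken. With the longest transcript, Tlr13 was at 5.13 in WT LPS and Tlr4 at 4.25 in KO LPS. Outside the 10 genes, Tlr5, the flagellin receptor, was at 19.0, 7.36, 21.3 and 6.99 CPM in WT medium, WT LPS, KO medium and KO LPS, and Tlr11 had at most 3 counts in any library.

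Genes that serve these receptors were followed as 4 lists. Their counts stand beside the shares of all genes given above: under LPS 16.3% rose and 16.3% fell in WT and 25.3% and 26.8% in KO, and in KO against WT 12.3% were lower in medium and 12.7% under LPS. No list is called particular from its counts. Of 7 coreceptor genes for LPS and lipopeptides, LPS raised 2 in each line (medians 0.35 in WT and 0.03 in KO), which in KO is near the share of all genes, and 3 were lower and 0 higher in KO in either condition, with 0 higher also at an unadjusted p under 0.05 and by DESeq2 (median -0.46 in medium and -0.60 under LPS). Ly96 and Cd180, which encodes a surface protein related to TLR4, were the 2 raised in WT, by 0.89 ± 0.18 (adjusted p = 0.00281) and 1.17 ± 0.14 (adjusted p = 7.58e-05). In KO, Ly96 rose by 0.54 ± 0.18 (adjusted p = 0.0228), a call lost in 8 alternatives, among them leaving out KO medium replicate 2 or 3 or KO LPS replicate 1 or 3. Cd36, a scavenger receptor that serves TLR2 with TLR6, was at 16.1 ± 8.58 CPM in WT medium and 0.408 ± 0.102 CPM in KO medium (log2 -5.29 ± 0.53, adjusted p = 5.97e-05), and the difference under LPS was -5.87 ± 0.54 (adjusted p = 2.19e-05). Itgam, an integrin chain also counted among the microglial markers, was lower in KO, at a log2 difference of -2.51 ± 0.16 in medium (adjusted p = 1.22e-06) and -3.04 ± 0.16 under LPS (adjusted p = 2.4e-07).

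Of 15 genes for trafficking and processing of the receptors, LPS raised 6 and lowered 3 in WT (median 0.14) and raised 6 and lowered 4 in KO (0.19), where 52% of all genes changed. With library size alone the balance turned, to 1 raised and 6 lowered in WT and in KO, and with the pseudogene share as covariate 3 were raised in WT and 1 in KO. That share separates medium from LPS libraries in KO, where the covariate fit called 2001 of all genes and the main fit 13749. In WT, 3 were raised without WT medium replicate 2 or WT LPS replicate 1, and in KO 3 without KO medium replicate 2 or KO LPS replicate 1. Without KO LPS replicate 2, 2 were lowered in KO. In KO against WT, 1 was higher and 7 lower in medium (median -0.21) and 2 were higher and 6 lower under LPS (median -0.09). The call of the 1 higher in medium was lost on leaving out any single medium library of either line. It was also lost with scaling by size factors, no filter, the pseudogene covariate or only the groups compared. The count lower in medium was 1 with the pseudogene covariate, 2 without WT medium replicate 1 or KO medium replicate 3, 3 without KO medium replicate 2 and 4 without WT LPS replicate 1. The LPS effect differed for 0 of the 15 by edgeR at an adjusted p under 0.05, for 6 at an unadjusted p under 0.05, and for 1 by DESeq2. Slc15a3, a lysosomal transporter of histidine and muramyl dipeptide, rose by 2.98 ± 0.15 in WT (adjusted p = 7.25e-08) and 3.47 ± 0.15 in KO (adjusted p = 2.62e-08). Lgmn, a protease that cuts the endosomal receptors, was lower in KO under LPS, at a log2 difference of -0.82 ± 0.18 (adjusted p = 0.00552). Ctsk, a cathepsin of low level that was chosen after its values were seen, was at 3.33 ± 0.292 and 3.58 ± 0.368 CPM in WT medium and LPS and at 0.546 ± 0.153 and 0.327 ± 0.0216 CPM in KO. Its line difference was -2.61 ± 0.23 in medium (adjusted p = 1.52e-05) and -3.44 ± 0.24 under LPS (adjusted p = 2.1e-06), the largest in this list.

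Of 17 adaptors and kinases, LPS raised 11 and lowered 3 in WT (median 0.59) and raised 9 and lowered 2 in KO (0.42), against 32.6% and 52% of all genes changed in either direction. In KO against WT under LPS, 2 were higher and 6 lower (median -0.03), 1 of the 2, Ikbke, not without WT LPS replicate 1. Ikbke, a kinase that acts on interferon regulatory factors, rose from 27.8 ± 1.44 to 477 ± 67.2 CPM in WT and from 19.4 ± 3.72 to 739 ± 96.8 CPM in KO. Its LPS effect was greater in KO by 1.15 ± 0.22 (adjusted p = 0.0233), a call lost without WT medium replicate 1 or 3, WT LPS replicate 1 or 3, KO medium replicate 3, or KO LPS replicate 1 or 3, and when the pseudogene share entered as a covariate. Traf6, a ubiquitin ligase downstream of MYD88, was lower in KO, at -0.88 ± 0.10 in medium (adjusted p = 8.44e-05) and -1.10 ± 0.10 under LPS (adjusted p = 1.13e-05), and Ticam2, which links TLR4 to TRIF, was lower at -1.30 ± 0.26 under LPS (adjusted p = 0.00405).

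Of 11 negative regulators, LPS raised 6 and lowered 2 in WT (median 0.69) and raised 8 and lowered 2 in KO (0.74), where 32.6% and 52% of all genes changed. In KO against WT, 5 were lower in medium and 3 under LPS, where 1 was higher (median -0.30). Of these, 3 were lower in medium without WT medium replicate 3, and 2 were higher under LPS without KO medium replicate 2 or KO LPS replicate 2. Irak3, a kinase-like inhibitor of the MYD88 pathway, was at 5.96 ± 0.590 and 24.6 ± 2.86 CPM in WT medium and LPS and at 0.251 ± 0.0681 and 0.763 ± 0.166 CPM in KO. Its line difference was -4.55 ± 0.23 in medium (adjusted p = 2.29e-07) and -5.00 ± 0.22 under LPS (adjusted p = 5.53e-08). Dok3, an adaptor that restrains signalling in macrophages, was at 42.6 ± 2.72, 24.8 ± 1.61, 33.3 ± 1.82 and 12.1 ± 0.772 CPM in WT medium, WT LPS, KO medium and KO LPS. Its LPS effect in KO minus that in WT was -0.68 ± 0.12 (adjusted p = 0.0168), a call lost without WT medium replicate 1, WT LPS replicate 2 or KO medium replicate 1 or 3. Tnfaip3, which encodes the ubiquitin-editing enzyme A20, rose by 4.22 ± 0.24 in WT (adjusted p = 2.92e-07) and 4.29 ± 0.24 in KO (adjusted p = 2.84e-07).

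For 4 members, the coding genes with the most similar pattern over the 12 libraries were listed by Pearson's r of log2 CPM, as a description, since the libraries fall into 4 groups. Among 9755 coding genes of sufficient level, Dhdh (r = 0.986) and Ptgs1 (0.98) were among the 3 nearest to Tlr4. Rgs14 (0.985), Orc5 (0.982) and Ptpro (0.982) were nearest to Tlr13, and Clec4e (0.998) and Degs1 (0.997) were among the 3 nearest to Cd14. Slfn3 (0.988), Mlkl (0.979) and Rsbn1 (0.978) were nearest to Tlr3.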

How the data were processed

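Gene counts in 12 libraries of SIM-A9 cells were analysed as deposited: whole-number raw read counts per Ensembl gene, not normalized. Reads were processed by the authors with FastQC 0.11.9, Trimmomatic 0.39, STAR 2.7.9a, featureCounts and DESeq2 1.32.0 on GRCm39, per the submitters' processing notes. Which annotation release was used, whether counting used strand, and how multi-mapping reads were treated are not stated in the sources used here.

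The test was that of edgeR 4.0.16 (R 4.3.3): filterByExpr by group (count minimum 10, 26420 of 55416 genes kept), TMM scaling, and a robust quasi-likelihood fit of 4 group means over all 12 libraries (biological coefficient of variation 0.235). P-values were adjusted by Benjamini-Hochberg over all genes within a comparison, with a threshold of 0.05. The interaction is the LPS effect in KO minus that in WT. SE was derived from the fold change and its F value. The fit was also run on counts simulated from its own model, with a smaller share of genes changed than LPS changed here. That run cannot show how well the model holds for these data, and its outcome is not reported here. Names, gene classes, exon lengths and shared 31-base stretches came from GENCODE on GRCm38 (52135 identifiers matched a symbol, and those without one held 6.47% of counts and were kept). That annotation gave no coordinates here. CPM per kb used the union of exons.

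The 10 genes, the lists and the tests were chosen with earlier results of these data known. From each list and comparison, the rule named the 2 called genes with the largest change at a mean log2 CPM of at least 1, and the most abundant gene. It also named 3 nearest genes by Pearson's r (prior count 2, mean log2 CPM of at least 2) for Tlr3, Tlr4, Tlr13 and Cd14. Some genes it named are not reported here. Alternatives were other scaling, no or a stricter filter (count minimum 50), DESeq2 1.42.0, robust estimation off, a replicate block, only the groups compared, protein-coding genes only, the processed pseudogene share as covariate, each library left out, and, chosen after seeing the data, 2 libraries left out together.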

Additional observations from a re-analysis of the deposited data

Results flagged for a closer look

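Among the 9 genes tested of the receptors and Cd14 and the genes of the 4 pathway lists, 5 had an LPS effect that differed between the lines by the interaction test of edgeR (adjusted p under 0.05), a test that 423 of all 26420 genes (1.6%) passed. Given as the effect in KO minus that in WT on the log2 scale, the differences were -3.75 for Tlr3, -0.65 for Tlr7, -1.68 for Tlr13, 1.15 for Ikbke and -0.68 for Dok3. Tlr3 and Tlr13 passed the threshold in all 22 alternatives fitted, with the highest adjusted p at 0.0128 and 0.0463. Tlr7 passed it in 13 of 22. Tlr3 was tested only because its libraries from LPS-treated cells passed the filter. It had 23 counts over the 3 medium libraries in each line. The alternatives refit those few counts, so they cannot show how large its difference is. With 3 libraries a group, single outlying libraries were not tested for.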

How the results depend on the processing

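Over the 45 effects of the 9 genes tested, 968 of 1025 alternative values kept direction and side of the threshold, 34 lost the call, 18 gained one and 5 changed sign. The 5 were uncalled effects: with library size alone, the LPS change of Tlr7 in WT (-0.069) and of Tlr1 in KO (-0.068), and, for Tlr3 in medium between the lines, -0.48 with the pseudogene share as a covariate, -0.28 without WT medium replicate 3 and -0.18 without KO medium replicate 3 (up to 0.293 without 2 libraries). Under library size alone, the all-gene median was -0.40 for LPS in WT (with TMM -0.07) and -0.29 in KO (with TMM -0.03). With 1 library left out, between 4 and 6 genes were called higher under LPS in WT, 5 to 7 lower in KO in medium, and 0 to 1 higher and 2 to 4 lower in the interaction. KO against WT under LPS gave 1 higher and 7 lower in every alternative. Whether replicate numbers pair the libraries was not settled. Deviations from the group means were correlated between libraries of the 2 groups compared. For LPS against medium in KO, each same-number correlation (0.192, 0.335 and 0.045) exceeded the highest with another number (0.045, -0.101 and 0.033). In the other comparisons not all did, with a same-number value as low as -0.366 for KO against WT in medium. With the replicate block, 1 gene (Tlr2) was higher in KO in medium and 1 (Tlr2) in the interaction (log2 0.69, adjusted p = 0.00812). Tlr2 was also the 1 gene called higher in the interaction with 2 libraries left out together. The block also called 2 effects of Tlr7, the LPS change in WT (0.27, adjusted p = 0.00354) and the line difference in medium (-0.23, 0.0121). Counts of the pathway lists moved by over 1.5 times under several alternatives. With library size alone, genes lowered by LPS in WT went from 3 to 6 for trafficking, 3 to 5 for adaptors and 2 to 4 for negative regulators. Tlr3 and Tlr8 are limited by their few counts.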
